A study of Homo sapiens with 36 samples.

Results

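A549 is a human lung adenocarcinoma cell line that the labels give as wild-type for EGFR, and the data described here compare its transcriptome after MinE07 with that after C36. MinE07 is an aptamer, a folded nucleic acid, that binds EGFR, and C36 is the control aptamer, used in an extended form. The comparison rests on 6 of the 36 libraries of the series, 3 with each aptamer, and on the 13274 of 66366 named genes whose mean level over those 6 libraries was at least 1 FPKM and whose value was above 0 in each of them. FPKM, sequenced fragments scaled by transcript length and by the fragments mapped in the library, is the unit of every level given here. A mean of at least 1 was reached by 13415 genes, of which 141 had a value of 0 in some aptamer library and were left out. Of the tested genes, 1025 are further numbered entries of a name that the files list more than once.

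The series holds 4 non-small cell lung cancer lines, each treated with MinE07, C36 or vehicle in 3 biologically independent experiments, as its record states. H3255 carries EGFR L858R, H1975 carries L858R with T790M, and H820 carries an exon 19 deletion with T790M. Cells were seeded at about 10000 per well, both aptamers were given at 3 µM for 24 h, and the vehicle was buffered saline with magnesium. All A549 groups were kept in DMEM with 1% serum during treatment and the other lines in RPMI, so medium, line and genotype cannot be told apart in any comparison with A549. Polyadenylated RNA was sequenced in pairs of 100-base reads.

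EGFR is a receptor tyrosine kinase that, once bound by a ligand, signals through RAS, RAF, MEK and ERK and through PI3K and AKT. ERK output is read in RNA from immediate early transcription factors, from feedback inhibitors such as the dual-specificity phosphatases and Sprouty proteins, and from secreted or surface effectors. A549 carries an inactivating mutation of KEAP1, which keeps the transcription factor NRF2 active. Cells also sense foreign RNA through Toll-like receptors, RIG-I and PKR, whose outputs include interferons, NF-kB targets and the ATF4 program.

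Summed FPKM lay between 402337 and 433350 in the 9 A549 libraries. The files give no read totals, but low values fall in steps that gave relative depths of 0.852 to 1.11 times the median among the aptamer libraries, with paths through different libraries agreeing within 0.003 on the log2 scale. The files' genes at or near 0 included CDKN2A and CDKN2B, which A549 lacks by deletion and which were listed at 0 in all 6 aptamer libraries. All 8 markers chosen for A549 were above 1 FPKM, among them KRT8 and KRT18 of simple epithelium and the aldo-keto reductase AKR1B10. Of 9 alveolar type II markers only LAMP3 and ABCA3 passed 1 FPKM, and of 8 immune markers only CD68 and CD14, while none of 7 fibroblast and none of 6 endothelial markers did. Vehicle replicates 1 and 3 stood apart: they lay at 0.685 and 0.509 on the first principal component (32.8% of the variance) against 0.0188 for Vehicle replicate 2, had relative depths of 1.31 and 1.39, and listed the mitochondrial gene COX1 at 0, where the other 7 libraries held 8722 to 10347 FPKM. They enter the test of MinE07 against C36 only through the shared spread.

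No gene passed the test between the aptamers. With limma on log2(FPKM + 0.5) over the 9 A549 libraries, 0 of 13274 genes (0%) had an adjusted p under 0.05, and the smallest adjusted p was 0.139. Changes are on that scale, which understates those of low genes. Without adjustment 1476 genes (11.1%) had p under 0.05, 866 of them higher and 610 lower with MinE07. The fit of the 6 aptamer libraries alone also called 0 genes, with a smallest adjusted p of 0.0669 and 2043 genes under 0.05 before adjustment. Fitted across the 36 libraries, with the spread taken from every line, the comparison called 318 genes (2.4%), 189 higher (1.42%) and 129 lower (0.972%). Of these, 315 had no overlap between the 3 MinE07 and the 3 C36 libraries, their median absolute log2 change was 0.17, and 8 reached 1.5-fold. That count was 62 without C36 replicate 3, 67 without MinE07 replicate 3, 154 without C36 replicate 1, 210 without C36 replicate 2, and 229 and 233 without MinE07 replicates 1 and 2. Libraries in which a gene is near 0 add little spread, so the p over 36 libraries can be too small for genes near 0 in the other lines.

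Small ordered shifts were nonetheless common. In 3037 genes (22.9%) the MinE07 libraries lay wholly above or wholly below the C36 libraries, 1668 above (12.6%) and 1369 below (10.3%). The share was 18% of genes at 1 to 5 FPKM and 28.1% at 20 to 100 FPKM. Full separation of 3 against 3 libraries has an exact two-sided permutation p of 0.1, the smallest such a test can give. With no difference between the aptamers, a share of 0.1 of genes is thus expected to be ordered. Ordering alone therefore does not mark a single gene as shifted. After rescaling by medians of ratios the split was 1551 above and 1551 below, so the surplus of higher genes rests on the deposited scaling. The shifts were small: their median absolute log2 change was 0.11, and 96.1% were under 1.2-fold.

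**Figure D1:**
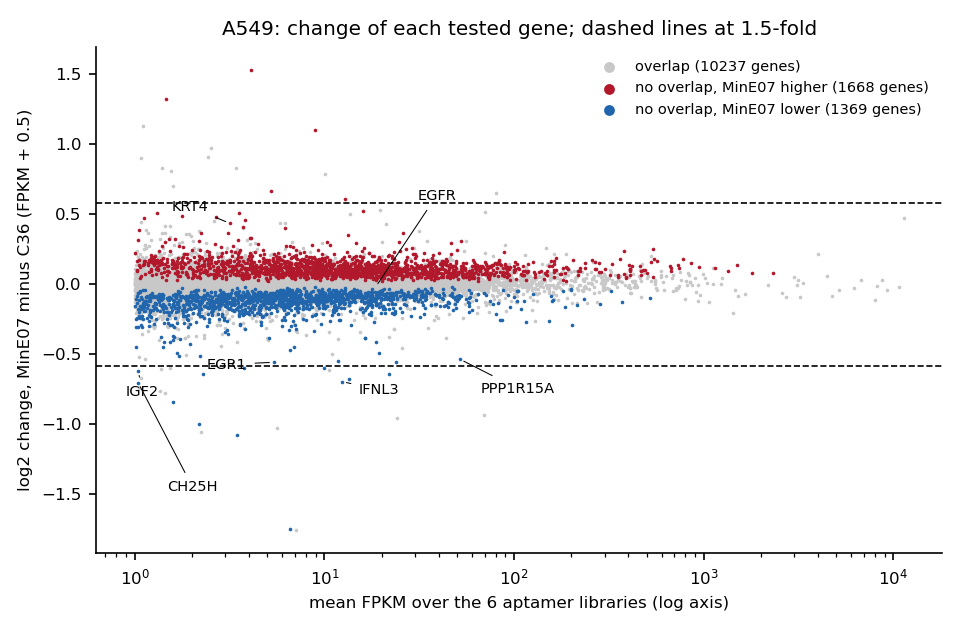
Change of each of the 13274 tested genes between MinE07 and C36 in A549 (vertical axis, log2 scale) against its mean level over the 6 aptamer libraries (horizontal axis, FPKM, log axis). Points are genes, coloured where the libraries of the aptamers do not overlap, and the 3037 coloured genes lie mostly well inside the dashed lines at 1.5-fold.

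The absence of calls can be bounded gene by gene. The 95% limma interval of the log2 change reached a median of 0.13 to either side of the estimate. It lay within 1.2-fold in either direction for 78% of genes, within 1.5-fold for 97.6% and within 2-fold for 99.2%. A 1.5-fold change was not bounded for 323 genes and a 2-fold change for 106. Bounds were widest at 1 to 5 FPKM, where 67.9% of 5599 genes were held within 1.2-fold, against 88.1% of 2169 genes at 20 to 100 FPKM. These intervals are unadjusted, so they hold for a gene named in advance and not for all genes at once.

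**Figure D2:**
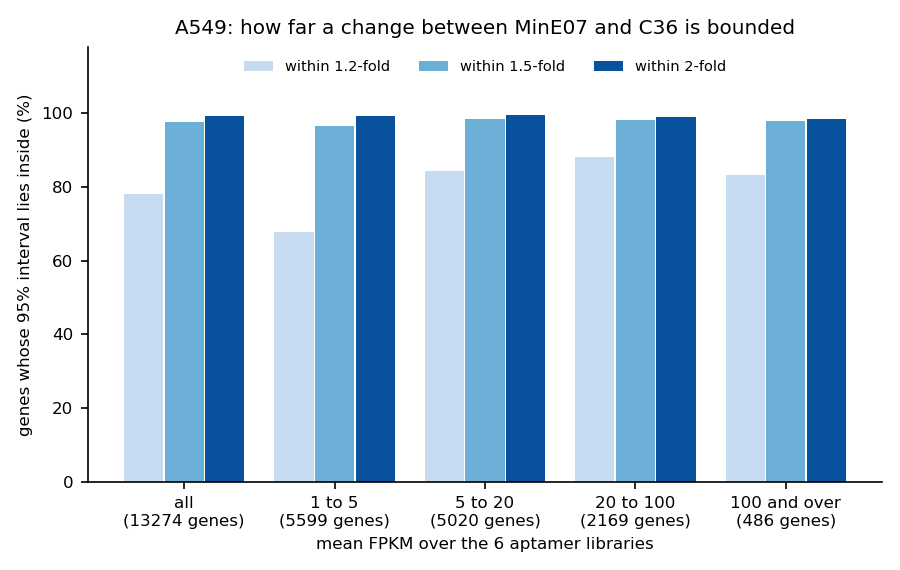
Share of tested genes (vertical axis, percent) whose 95% interval of the change between MinE07 and C36 lies within 1.2-fold, 1.5-fold or 2-fold, for all genes and by mean FPKM class (horizontal axis, with the number of genes). In every class at least 96.6% of genes were held within 1.5-fold.

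On the scale of FPKM + 0.5, the estimates themselves reached 1.5-fold for 39 genes and 2-fold for 9. Of the 39, 17 had no overlap between the aptamers, 12 lower and 5 higher. Many of the 39 are small nuclear or nucleolar RNAs, ribosomal pseudogenes or entries that share sequence with a near-identical copy, and their values are uncertain for that reason. RNU1-3 (log2 change 1.32), SNORD133 (-0.84), RPL28P3 (-0.60) and HLA-B (-0.64) are of this kind. The HLA-B entry held 1.41% of the summed FPKM of its numbered copies, and the sum had a change of -0.23. PFDN6 (0.67) and TPRKB (0.61), a prefoldin subunit and a subunit of a tRNA-modifying complex, had wide intervals, 0.19 to 1.15 and 0.04 to 1.18. The protein-coding genes of the lower group with no such doubt were CH25H, cholesterol 25-hydroxylase, and IGF2, a growth factor, both near 1 FPKM. CH25H read 1.23, 1.44 and 1.56 FPKM with C36 and 0.926, 0.512 and 0.601 with MinE07, a log2 change of -0.70 (95% interval -1.05 to -0.36, limma adjusted p 0.233).

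The receptors EGFR, ERBB2 and ERBB3 did not pass the test, and each change was tightly bounded. ERBB4, the remaining receptor of the family, read at most 0.003 FPKM in the A549 libraries and was not tested. EGFR read 19.2, 18.0 and 18.9 FPKM in the C36 libraries and 19.1, 17.2 and 19.1 in the MinE07 libraries. The groups overlapped, and the log2 change of -0.02 had a 95% interval of -0.13 to 0.09, which holds EGFR between 0.916 and 1.06 times its level with C36. ERBB2 had a change of 0.00 (-0.10 to 0.11) and ERBB3 one of -0.03 (-0.14 to 0.08). In H3255, where EGFR stood at 423 FPKM with C36 against 18.7 in A549, EGFR had a change of -0.31, and the difference between the lines was called by limma (-0.29, adjusted p 0.000428). Of 8 tested receptors and brakes of the family, 3 were lower in every MinE07 library and 0 higher, against 10.3% and 12.6% of all genes. The 3 were CBL, a ubiquitin ligase that marks EGFR for degradation (-0.13), the EGFR inhibitor LRIG1 (-0.06) and ERRFI1, an ERK-induced inhibitor of the EGFR kinase (-0.04). Each of their 95% intervals included 0.

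AREG and EREG, the most abundant ligands of the list, were slightly lower in every MinE07 library than in every C36 library. EREG, epiregulin, read 33.7, 33.9 and 34.7 FPKM with C36 and 31.8, 29.8 and 32.1 with MinE07, with no overlap, and had a change of -0.13 (-0.27 to 0.02). AREG, amphiregulin, read 41.5, 40.9 and 41.9 with C36 and 39.4, 38.2 and 40.1 with MinE07, also with no overlap, a change of -0.08 (-0.23 to 0.08). Of 6 tested ligand and sheddase genes, 3 were lower in every MinE07 library and 1, ADAM10, higher, against 10.3% and 12.6% of all genes. The list median was -0.10 against 0.00 for all genes. In H3255 the same ligands had changes of -1.31 and -1.37.

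ERK-driven genes leaned toward lower values with MinE07 than with C36. Of 17 tested immediate early and ERK-driven transcription factors, 8 were lower in every MinE07 library and 0 higher (median -0.10), as were 5 and 0 of 10 MAPK feedback inhibitors (median -0.08) and 6 and 1 of 11 ERK-driven effectors (median -0.11), where HMGA2 was the higher one. Over all genes 10.3% were lower and 12.6% higher in this way. Leaving out any aptamer library kept these 3 medians between -0.12 and -0.06. The members were chosen with results of these libraries known, so the counts are descriptions.

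EGR1, a zinc finger transcription factor induced within minutes of ERK activation, had the largest change in these lists. It read 5.79, 6.71 and 7.03 FPKM with C36, 4.68, 4.17 and 3.94 with MinE07, and 3.21, 2.81 and 2.78 with vehicle. The 3 groups did not overlap, and MinE07 lay between C36 and vehicle. The mean was 4.26 ± 0.377 (SD, n = 3) with MinE07 and 6.51 ± 0.648 (SD, n = 3) with C36, a log2 change of -0.56 (SE 0.08, limma adjusted p 0.139 over 9 libraries and 1.82e-05 over 36). Against vehicle, EGR1 was 0.47 higher with MinE07 (adjusted p 0.049) and 1.03 higher with C36 (adjusted p 0.0012). The first call was lost without Vehicle replicate 2, without replicate 3, and without replicates 1 and 3 (adjusted p 0.152, 0.16 and 0.0955), and the second was kept in each case. These comparisons share libraries, so they are not independent of each other.

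The EGR1 promoter is shown because its CArG boxes, the sites bound by serum response factor with ERK-activated ternary complex factors, are the textbook route of its induction. The window runs from 250 bases before to 50 after the RefSeq start (GRCh38.p14, chr5:138465229-138465528, plus strand), and capitals mark 2 CArG boxes found on either strand.
EGR1: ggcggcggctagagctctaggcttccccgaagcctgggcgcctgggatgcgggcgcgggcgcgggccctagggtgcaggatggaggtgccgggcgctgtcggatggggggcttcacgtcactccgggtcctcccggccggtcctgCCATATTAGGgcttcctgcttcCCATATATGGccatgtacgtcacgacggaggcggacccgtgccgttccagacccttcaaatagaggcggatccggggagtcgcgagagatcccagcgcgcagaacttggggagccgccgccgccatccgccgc
A CArG box was present in 2 of the 11 immediate early promoters with a RefSeq window, those of EGR1 and SRF, and in 0.987% of the 9224 windows of tested genes. A match is a description of letters and not of binding.

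FOSL1, a FOS-family partner in AP-1, read 19.5, 19.7 and 20.7 FPKM with C36 and 17.4, 16.5 and 15.6 with MinE07. The groups were apart, and MinE07 sat among the vehicle libraries (17.5, 16.1 and 15.4). Its change was -0.27 (-0.39 to -0.14), with a limma adjusted p of 0.233 over 9 libraries and 0.0474 over 36. ATF3, a stress-responsive factor, had a change of -0.28, and JUN, MYC, SRF, IER3 and IER5, lower in every MinE07 library, had changes of -0.15 to -0.06.

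Among feedback inhibitors, SPRY4, a Sprouty protein, read 3.6, 3.47 and 3.5 FPKM with C36 and 3.25, 2.84 and 3.06 with MinE07, a change of -0.18 (-0.30 to -0.06). SPRED2 (-0.12) and DUSP7 (-0.14) were also lower without overlap, whereas DUSP6, a direct ERK phosphatase often used as a readout, had a change of -0.07 with overlapping groups. Among effectors, PLAUR, the urokinase receptor, read 23.3, 24.7 and 24.9 FPKM with C36 and 19.9, 21.7 and 21.6 with MinE07. Its change was -0.20 (-0.33 to -0.07), and EPHA2, an ephrin receptor, had a change of -0.15 (-0.23 to -0.06). With vehicle SPRY4 read 2.71, 2.78 and 2.95 FPKM and PLAUR 21.3, 18.6 and 18.6. Against vehicle, limma called both as higher with C36 (0.28 and 0.31, adjusted p 0.0185 and 0.0164). Neither was called with MinE07 against vehicle (0.10 and 0.11, limma adjusted p 0.441 and 0.433). EPHA2, at 31.9, 32.7 and 32.7 with vehicle, was called against vehicle with neither aptamer. SPRY4, EPHA2 and PLAUR passed in the fit of 36 libraries (adjusted p 0.0342, 0.0279 and 0.0489), and none passed in that of 9. CCND1, the G1 cyclin downstream of ERK, had a change of -0.03 with overlap. No FOXO-responsive gene, a set that rises when AKT is inhibited, was ordered in either direction among 7 tested (median 0.03). Of the list members below the level filter, SESN3 alone was ordered, and it was higher with MinE07. It read 0.625, 0.698 and 0.617 FPKM with C36 and 0.835, 0.781 and 0.801 with MinE07.

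**Figure D3:**
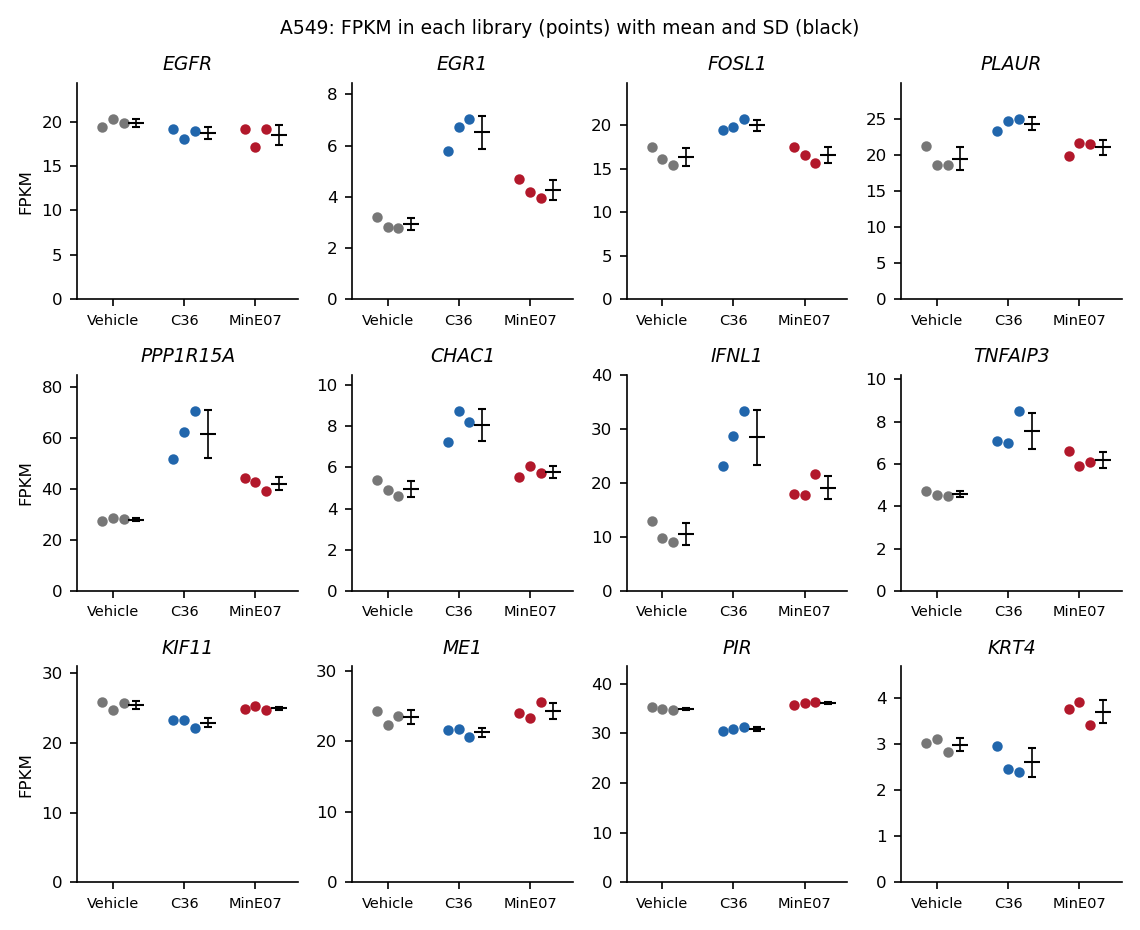
FPKM of 12 genes in each A549 library (points, 3 per group, vertical axes from 0) with the mean and SD in black, for vehicle, C36 and MinE07 (horizontal axes). EGFR overlaps between the aptamers with the vehicle libraries above both (19.4 to 20.3), EGR1, PPP1R15A, CHAC1 and IFNL1 are lower with MinE07 than with C36 but not below vehicle, and KIF11, ME1, PIR and KRT4 are higher with MinE07 than with C36.

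The ATF4 program, the stress response set off when translation factor eIF2 is phosphorylated, had the lowest median of the 19 lists. All 14 tested members had a negative change (median -0.13, leave-one-out -0.17 to -0.11), and 7 were lower in every MinE07 library (10.3% of all genes). CHAC1, which degrades glutathione, read 7.21, 8.76 and 8.20 FPKM with C36, 5.51, 6.08 and 5.71 with MinE07, and 5.39, 4.90 and 4.59 with vehicle. MinE07 was apart from C36, and its lowest library was just above the highest vehicle library. The log2 change was -0.45 (SE 0.07, limma adjusted p 0.139 over 9 libraries and 0.00417 over 36). STC2, a secreted glycoprotein, read 9.33, 9.93 and 10.4 with C36 and 7.82, 7.95 and 7.42 with MinE07 (-0.33, adjusted p 0.139 and 2.65e-05), and TRIB3, a pseudokinase of the same program, had a change of -0.18. Beyond the list, PPP1R15A, which brings phosphatase back to eIF2, read 51.9, 62.2 and 70.7 with C36, 44.2, 42.8 and 39.3 with MinE07, and 27.4, 28.5 and 28.0 with vehicle. Its 3 groups were apart, and its change was -0.53 (-0.75 to -0.32, limma adjusted p 0.166). Without C36 replicate 1, PPP1R15A passed in the fit of the A549 libraries.

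The CHAC1 promoter is shown for its match to the ATF4 composite element, searched as TGATGNAA on both strands. The window is RefSeq GRCh38.p14, chr15:40953221-40953520, plus strand, and capitals mark the single match.
CHAC1: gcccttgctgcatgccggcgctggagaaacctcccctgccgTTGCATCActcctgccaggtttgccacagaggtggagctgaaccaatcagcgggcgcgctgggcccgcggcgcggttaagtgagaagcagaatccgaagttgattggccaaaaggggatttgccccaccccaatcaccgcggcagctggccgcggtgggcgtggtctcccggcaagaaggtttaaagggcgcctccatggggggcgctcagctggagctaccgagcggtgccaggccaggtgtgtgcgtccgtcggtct
The element was present in 3 of 14 promoters of the list, those of CHAC1, ASNS and SLC3A2, and in 1.59% of the windows of tested genes. ASNS, asparagine synthetase, had a change of -0.15 without overlap and SLC3A2, an amino acid transporter chain, one of -0.03 with overlap.

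Interferon genes were high in A549 and lower with MinE07 than with C36. IFNL1, a type III interferon, read 23.2, 28.7 and 33.4 FPKM with C36, 17.9, 17.8 and 21.6 with MinE07, and 12.9, 9.71 and 9.02 with vehicle. MinE07 lay between the other groups without overlap. The change was -0.55 (-0.93 to -0.18, limma adjusted p 0.343 over 9 libraries and 0.00256 over 36). IFNL2 and IFNL3 had changes of -0.55 and -0.69, but they are near-identical in sequence and each has a numbered second entry. With both entries of each name summed, the changes of IFNL1, IFNL2 and IFNL3 were -0.60, -0.58 and -0.70. IFNB1, interferon beta, had a change of -0.49 (-0.84 to -0.15) with overlapping groups. In the other lines none of the 4 averaged above 0.0971 FPKM in any group, so their level there was near 0. Such libraries add little spread: the SE of IFNL1 was 0.164 over 9 libraries and 0.0966 over 36. The p of IFNL1 over 36 libraries can therefore be too small.

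Downstream, 9 of 30 interferon response genes were lower in every MinE07 library and 1, IFIT5, higher, against 10.3% and 12.6% of all genes (median -0.07, leave-one-out -0.08 to -0.04). IFIT2, which binds viral RNA, read 112, 126 and 139 FPKM with C36, 105, 101 and 106 with MinE07, and 81.9, 59.8 and 65.1 with vehicle, a change of -0.27 (-0.52 to -0.02). ISG15, a ubiquitin-like protein, overlapped between the aptamers (-0.13). The 95% intervals of all 30 genes lay within 1.5-fold. The RNA sensors RIGI, IFIH1, EIF2AK2 and TLR3 had changes of 0.00, -0.04, 0.01 and -0.05. LAMP3, which is interferon-induced as well as an alveolar type II marker, averaged 18.6 with C36, 14.2 with MinE07 and 10.8 with vehicle, while the surfactant genes averaged at most 0.105 FPKM.

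All 14 tested NF-kB targets and cytokines had a negative change, and 7 were lower in every MinE07 library, against 10.3% of all genes (median -0.12, leave-one-out -0.15 to -0.09). TNFAIP3, the A20 brake on NF-kB, read 7.1, 7.0 and 8.52 FPKM with C36, 6.60, 5.88 and 6.09 with MinE07, and 4.73, 4.52 and 4.47 with vehicle. The groups were apart, with a change of -0.26 (-0.42 to -0.10). NFKB2 (-0.20), RELB (-0.15) and NFKBIA (-0.17) followed, and the neutrophil chemokine CXCL8 overlapped (-0.07). In bulk RNA, fewer cells of a state and less RNA per cell cannot be told apart. The summed immune markers, almost all of it CD68, were 94.4 to 98.2 FPKM with C36 and 73.5 to 86.95 with MinE07. PTPRC averaged at most 0.0119 FPKM in any group and CD3E, CD3D and MS4A1 were listed at 0 in all 9 libraries. The part of CD68 in these shifts was not tested.

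Mitotic genes leaned toward higher values with MinE07 than with C36. Of 19 mitotic genes, 12 were higher in every MinE07 library (12.6% of all genes) and 0 lower, with a median of 0.10 (leave-one-out 0.09 to 0.12). KIF11, a spindle motor, read 23.3, 23.3 and 22.2 FPKM with C36, 24.9, 25.2 and 24.8 with MinE07, and 25.9, 24.7 and 25.8 with vehicle. MinE07 was apart from C36 and among the vehicle libraries, with a change of 0.12 (0.04 to 0.20, limma adjusted p 0.335). DLGAP5, a spindle assembly protein outside the list, had a change of 0.23 (0.15 to 0.31, adjusted p 0.139 over 9 libraries and 0.000899 over 36). The median of the mitotic list was -0.30 in H3255 and -0.23 in H1975, and the difference from A549 was called for 18 and 17 of the 19 genes, against 26% and 12.1% of all genes. In H820 the median was -0.07, and limma called 0 of 19 differences (0.394% of all genes), with 15 at an unadjusted p under 0.05. For the G1-S list the median was 0.02, with a leave-one-out range of -0.003 to 0.03, and 4 of 19 genes were higher in every MinE07 library and 1 lower, so no common direction was seen. RRM1, the large subunit of ribonucleotide reductase, had a change of 0.13 (0.05 to 0.21).

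Some p53 targets were lower in every MinE07 library: CDKN1A, the p21 inhibitor of cyclin-dependent kinases, had a change of -0.14 (-0.23 to -0.05), GDF15, a stress cytokine, one of -0.12 (-0.20 to -0.05) and SESN2, a sestrin that is also an ATF4 target, one of -0.17 (-0.27 to -0.07), each without overlap. Of 15 genes in that list 6 were lower and 1 higher in every MinE07 library (10.3% and 12.6% of all genes), with a median of -0.05.

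NRF2 targets had the highest median of the 19 lists. Of 15 tested, 9 were higher in every MinE07 library and 0 lower (12.6% and 10.3% of all genes), with a median of 0.11 (leave-one-out 0.09 to 0.12). ME1, malic enzyme, read 21.6, 21.8 and 20.6 FPKM with C36 and 24.1, 23.4 and 25.6 with MinE07, a change of 0.19 (0.08 to 0.29, limma adjusted p 0.283 over 9 libraries and 0.00842 over 36). AKR1C2, an aldo-keto reductase, averaged 496 ± 6.51 FPKM with C36 and 554 ± 7.4 with MinE07 (SD, n = 3), with no overlap, a change of 0.16 (0.07 to 0.25). AKR1C1, AKR1C2 and AKR1C3 are close paralogs, so their separate values are uncertain. PIR, pirin, an iron-binding NRF2 target outside the list, had the smallest unadjusted p of all genes: it read 30.4, 30.9 and 31.2 with C36, 35.8, 36.2 and 36.3 with MinE07, and 35.2, 34.8 and 34.7 with vehicle. Its change was 0.22 (0.15 to 0.29, limma adjusted p 0.139), and HMOX1, heme oxygenase, had a change of -0.03 with overlap.

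The promoters of ME1 and PIR are shown for the antioxidant response element that NRF2 binds, searched as TGACNNNGC on both strands and marked in capitals. Both windows are RefSeq GRCh38.p14 on the minus strand, at chr6:83431002-83431301 with 2 matches and at chrX:15493284-15493583 with 1 match.
ME1: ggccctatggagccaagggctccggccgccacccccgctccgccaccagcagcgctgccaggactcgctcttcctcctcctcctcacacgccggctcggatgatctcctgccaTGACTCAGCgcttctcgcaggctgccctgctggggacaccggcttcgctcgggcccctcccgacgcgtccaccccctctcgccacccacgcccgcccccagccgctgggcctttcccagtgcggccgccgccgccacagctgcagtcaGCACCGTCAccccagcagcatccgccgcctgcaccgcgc
PIR: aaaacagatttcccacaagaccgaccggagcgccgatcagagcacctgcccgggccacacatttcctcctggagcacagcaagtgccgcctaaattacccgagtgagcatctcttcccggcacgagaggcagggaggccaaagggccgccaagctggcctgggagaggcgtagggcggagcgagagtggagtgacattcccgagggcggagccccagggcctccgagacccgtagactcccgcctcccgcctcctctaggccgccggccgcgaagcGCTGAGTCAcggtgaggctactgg
The element was present in 3 of the 10 list promoters with a window, those of ME1, GCLM and TXNRD1, against 15.4% of the windows of tested genes, so it is a common string.

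**Figure D4:**
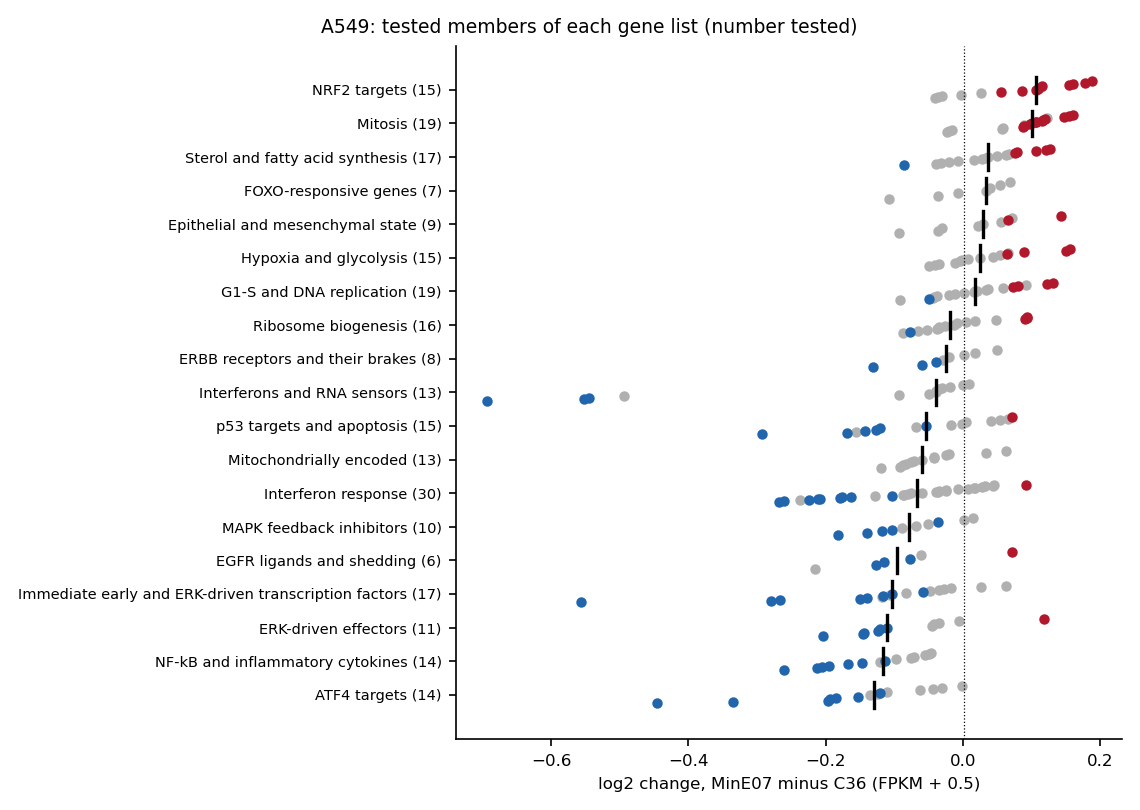
Log2 change between MinE07 and C36 (horizontal axis) of each tested member of the 19 pathway lists in A549, ordered by list median (vertical axis, number tested in brackets). Points are genes, red or blue where all 3 MinE07 libraries lay above or below all 3 C36 libraries, black bars are list medians, and the dotted line is the median of all 13274 genes: ATF4 targets lie lowest and NRF2 targets highest.

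Counts in the remaining lists are read against the 12.6% of all genes that were higher and the 10.3% that were lower in every MinE07 library. Of 17 sterol and fatty acid synthesis genes 5 were higher and 1 lower in every MinE07 library (median 0.04), INSIG1 and IDI1 among the higher (0.12 and 0.13). Of 15 hypoxia and glycolysis genes 4 were higher and 0 lower (median 0.03), among them BNIP3L, a mitophagy receptor (0.15, adjusted p 0.011 over 36 libraries). Ribosome biogenesis genes were split, with 3 of 16 higher and 1 lower (median -0.02). Epithelial and mesenchymal genes had 2 of 9 higher, VIM (0.07) and TGFB2 (0.14), and none of 13 mitochondrially encoded genes was ordered (median -0.06). Over all 19 lists 268 genes were tested, and the 95% interval lay within 1.5-fold for 261. The exceptions were EGR1, CHAC1, IFNB1, IFNL1, IFNL2, IFNL3 and COX1, the last with no usable interval because of its vehicle zeros.

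Outside the lists, KRT4, a keratin of stratified epithelium, read 2.97, 2.46 and 2.40 FPKM with C36, 3.77, 3.92 and 3.43 with MinE07, and 3.03, 3.12 and 2.84 with vehicle. MinE07 was above both other groups, and the change from C36 was 0.44 (0.27 to 0.60, limma adjusted p 0.139 over 9 libraries and 4.31e-05 over 36). Among the 21 genes that changed at least 2-fold in H3255 and were tested in A549, KRT4 was also the most raised in H3255 (1.66). ANXA1, annexin A1, read 490, 503 and 477 with C36 and 579, 578 and 599 with MinE07, a change of 0.26 (0.14 to 0.37), and its vehicle libraries read 636, 560 and 588. TM4SF20, a membrane protein, had a change of 0.31 (0.20 to 0.41) and averaged at most 0.00958 FPKM in any group of the other lines.

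The vehicle libraries place these shifts. In A549, limma called 868 genes (6.54%) between C36 and vehicle, 536 higher and 332 lower, and 58 genes (0.437%) between MinE07 and vehicle, 34 higher and 24 lower. These comparisons share the vehicle libraries, and C36 and MinE07 each also enter the comparison of the aptamers. The counts moved with the vehicle libraries used. Without Vehicle replicate 1, 2 or 3 in turn they were 1122, 527 and 300 for C36 and 408, 5 and 0 for MinE07 (1634 genes at an unadjusted p under 0.05 in the last case), and without replicates 1 and 3 together they were 363 and 76. After rescaling, 35 genes were higher and 44 lower with MinE07 than with vehicle, which turns the majority.

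List medians were set against vehicle in the same way. For ATF4 targets the median was 0.20 with C36 against vehicle and 0.10 with MinE07 against vehicle, for NF-kB targets 0.35 and 0.23, and for immediate early genes 0.14 and 0.10. In the same order it was 0.07 and 0.01 for MAPK feedback inhibitors and 0.08 and -0.02 for ERK-driven effectors. The ligand and sheddase list had 0.15 and 0.08, and all genes had 0.01 and 0.02. For mitotic genes the medians were -0.17 and -0.06, and for NRF2 targets -0.08 and 0.01. The interferon response list was higher with both aptamers by similar medians, 0.23 with C36 and 0.24 with MinE07. Of its 30 genes 21 and 4 were called, against 6.54% and 0.437% of all genes. Calls over all genes moved with the vehicle libraries used, so 21 against 4 is not read as a difference between the aptamers.

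The A549 response was set against that of the EGFR-mutant lines by counts of genes called, each line compared with its own C36 libraries. Such counts depend on the spread within each line as well as on the size of the changes. H3255 had 4986 of 13297 genes called (37.5%), H1975 2903 of 14074 (20.6%) and H820, which is also EGFR-mutant, 4 of 13637 (0.0293%). The difference of the change itself, tested as an interaction in the 36 libraries over 12687 genes, was called for 3296 genes between H3255 and A549 (26%), for 1534 between H1975 and A549 (12.1%) and for 50 between H820 and A549 (0.394%, with 1613 genes at an unadjusted p under 0.05). Of the 4269 genes called in H3255 and tested in A549, 50.2% had the same sign in A549, 12.7% were ordered the same way and 13.5% the opposite way. Of the 2474 from H1975, 54.6% had the same sign, with 15% and 12.6% ordered. Genes higher in H3255 had a median change of 0.005 in A549 and genes lower in H3255 a median of 0.004.

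For the genes that moved most in H3255 the A549 data set narrow limits. There were 30 genes called there with at least a 2-fold change and no overlap, of which 21 were tested in A549, 8 higher and 13 lower, IRF9 counted with its numbered second entry, and 9 were below its level filter. The median absolute log2 change of the 21 was 1.17 in H3255 and 0.08 in A549. The 95% interval in A549 excluded the H3255 estimate for 21 of 21 genes and excluded even the midpoint between 0 and that estimate for 21 of 21. The differences between the lines were 0.94 to 1.89. The genes were chosen by their H3255 change, so these differences are a description with no test. CXCL8 fell by 1.97 in H3255 and had a change of -0.07 (-0.26 to 0.12) in A549, PLAU, urokinase, fell by 1.53 and had a change of -0.12 (-0.23 to -0.02), and ALDH3B1, an aldehyde dehydrogenase, rose by 1.57 and had a change of 0.04 (-0.08 to 0.16).

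The signs of these 21 genes were nevertheless mostly shared. In A549 19 of 21 had the sign they had in H3255 (18 of 20 with IRF9 counted once), 7 were ordered that way and 0 the opposite way, against 12.7% and 13.5% over all H3255 calls. The 21 genes were chosen by their size in H3255, whose libraries A549 does not share. The 7 were PLAU, AREG, EREG and PLAUR among the lower genes and SELENBP1, ALDH1A1 and KRT4 among the higher. Other than KRT4, the largest absolute change in A549 was 0.204, that of PLAUR.

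**Figure D5:**
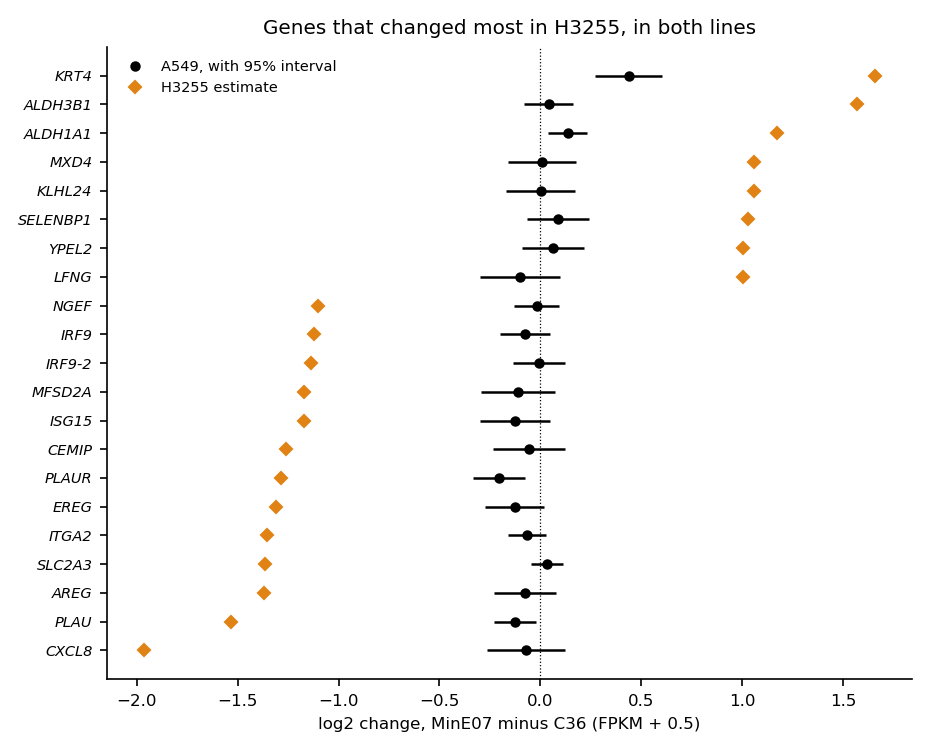
Log2 change between MinE07 and C36 (horizontal axis) of the 21 genes that changed at least 2-fold in H3255 and were tested in A549 (vertical axis). Black points and lines are A549 estimates with 95% intervals and diamonds are H3255 estimates: every A549 interval excludes the diamond of its gene, and the A549 points lie near 0 other than KRT4.

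EGR1 had a negative change in each line. The change was -0.56 in A549, -0.61 in H1975, -0.78 in H820 and -0.92 in H3255, and in all 4 lines it was lower in every MinE07 library than in every C36 library. The interaction was called for H3255 (adjusted p 0.00689) and not for H1975 (0.767) or H820 (0.335). Mean EGR1 differed by line, from 2.34 FPKM with C36 in H820 to 20.1 in H3255. With vehicle it was 2.93 in A549 and 16.9 in H3255, below and above the respective MinE07 means of 4.26 and 10.4. FOSL1 and PLAUR were also negative in each line, FOSL1 at -0.27 in A549, -0.82 in H3255, -0.55 in H1975 and -0.19 in H820, and PLAUR at -0.20, -1.28, -0.23 and -0.02 in the same order. For both, the interaction was called for H3255 (adjusted p 0.000144 and 2.88e-11) and not for H1975 or H820.

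For some genes, chosen for their small p or large change in A549, the change was larger there than in other lines, so the p-values below do not allow for that choice. STC2 had a change of -0.33 in A549 and 0.00 in H3255, -0.04 in H1975 and -0.04 in H820, and limma called all 3 differences (adjusted p 0.000112, 0.00139 and 0.02). PPP1R15A had a change of -0.53 in A549, -0.31 in H3255, -0.03 in H1975 and 0.04 in H820, with the difference called for H1975 and H820 (adjusted p 0.000328 and 0.00439) and not for H3255 (0.0644). CHAC1 had changes of opposite sign, -0.45 in A549 and 0.68 in H3255 (adjusted p of the difference 1.89e-08). DLGAP5, PIR and ANXA1 had positive changes in A549 and negative ones in H3255, with each difference called.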

How the data were processed

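RNA sequencing of 36 libraries was analysed from 1 table of FPKM per library, deposited by the authors. Reads were aligned with HISAT2 and quantified with Cuffdiff on GRCh38.p12 (hg38), per the submitters' processing notes, which give no versions. The tables were joined by gene name, leaving 1874 unnamed entries (at most 0.003% of FPKM) and 31 repeated entries aside. FPKM was analysed as log2(FPKM + 0.5) with limma 3.58.1 in R 4.3.3 (trend and robust moderation, two-sided, Benjamini-Hochberg adjusted p under 0.05) and with Python 3.11.15. Replicate numbers were not used as a block. No read counts were analysed, so no count test was run, and absolute depth is unknown. The members, gene lists and tests were chosen with earlier results of these data known. Named genes were EGFR, ERBB2 and ERBB3, up to 3 members of each list with the smallest unadjusted p, and up to 8 ordered genes per direction with the largest change. Added to them were up to 4 per direction with the smallest p in the fit of 9 libraries and in that of 36, and the 8 largest changes of H3255 among genes tested in A549. Other genes named were chosen after their values were seen. The limma procedure was tested on simulated data. Pseudocount, filter, scaling, block, library set and left-out libraries were varied.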

Additional observations from a re-analysis of the deposited data

Results flagged for a closer look

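For 23 genes, those named for their receptor role, their p or their change in H3255, the change between MinE07 and C36 was compared between A549 and each other line by limma's interaction term over 36 libraries. The difference was called for 19 genes with H3255, 11 with H1975 and 7 with H820 (adjusted p under 0.05), against 26%, 12.1% and 0.394% of all genes. Most of the 23 were chosen for their p in A549 or their change in H3255, so the counts follow in part from that choice. Each value below is the other line's log2 change minus that of A549.

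Against H3255, receptor genes differed: EGFR by -0.29, ERBB2 by 0.23 and ERBB3 by 0.23. CXCL8 differed by -1.89, ALDH3B1 by 1.53, PLAU by -1.41, SLC2A3, a glucose transporter, by -1.40, AREG and the integrin ITGA2 each by -1.29 and EREG by -1.19, and KRT4 by 1.22. Genes that were higher with MinE07 in A549 differed downward, PIR by -0.55, ANXA1 by -0.55, DLGAP5 by -0.49, LOC128706665 by -0.40 and TM4SF20 by -0.29. EGR1 differed by -0.36, STC2 by 0.34 and IFNL3 by 0.61.

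Against H1975, the differences were -0.47 for LOC128706665, -0.43 for AREG, -0.41 for KRT4, -0.37 for DLGAP5, -0.33 for TM4SF20 and -0.28 for ITGA2. They were 0.71 for IFNL3, 0.51 for PPP1R15A, 0.43 for ALDH3B1, 0.30 for STC2 and 0.27 for ERBB3. Against H820, they were -0.43 for KRT4, -0.31 for TM4SF20, -0.30 for DLGAP5 and -0.23 for ANXA1, and 0.68 for IFNL3, 0.58 for PPP1R15A and 0.30 for STC2.

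IFNL3 and TM4SF20 averaged at most 0.029 and 0.00958 FPKM in every group of the other lines and KRT4 at most 0.0137 FPKM in H1975, so those differences set the A549 changes of -0.69, 0.31 and 0.44 against genes near 0. Libraries near 0 add little spread, so the adjusted p of those differences can be too small, and their calls are included in the counts above. The parts of genotype, line and medium in these differences cannot be told apart.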

How the results depend on the processing

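The count of 0 genes called between MinE07 and C36 in A549 became 1 with no filter on the mean level (MUC5B-AS1) and 318 with all 36 libraries, and ranged from 0 to 2 when 1 library was left out, the 2 being PPP1R15A and a second IFNL1 entry without C36 replicate 1. The other planned settings, the replicate block among them, called 0 genes. With the replicate block 1226 genes had an unadjusted p under 0.05. The same-numbered MinE07 and C36 libraries deviated with correlations of 0.0512, -0.0436 and -0.0302, and 0 of 3 MinE07 libraries correlated best with their own number. No pairing by number was seen, though 3 libraries per group are too few to exclude it. The count of differences between H820 and A549, 50 in the main analysis, was 83 with a pseudocount of 1, 81 after rescaling, 30 with the replicate block, and 14 to 75 with 1 A549 library left out, the lowest without C36 replicate 3. It was 20 without C36 replicate 2 or MinE07 replicate 3 and 27 without MinE07 replicate 1. Some near-zero changes turned sign. ERBB2 was -0.00242 after rescaling and ranged from -0.025 to 0.029 over left-out libraries, EGFR ranged from -0.046 to 0.031, and ALDH3B1 from -0.000744 to 0.085. Among 88 named genes, 752 of 788 alternative values kept direction and side of the threshold, 30 passed it, 29 of them in the fit of 36 libraries, and 6 turned sign. The 1.2-fold bound and the alternatives against vehicle, in the 36-library fit without single libraries and with copies summed were chosen after seeing the data. Depth is known only in relative terms, so no limit for undetected genes is given.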
